A study of Mus musculus with 9 samples.

Results

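The genes described here are 33 components of the cAMP, calcium and MAP kinase signalling that leads to the transcription factor CREB. They comprise kinases, adenylyl cyclases, phosphodiesterases, phosphatases and the CREB factors with their coactivators. They were chosen by symbol from a table of 24489 rows, though with earlier results of these data known, and all 33 had a row. The table gives FPKM, a fragment count divided by transcript length and by library size, for polyadenylated RNA from area CA1 of the mouse hippocampus. The 9 libraries form 3 groups of 3 from C57BL/J6 mice aged 9 to 12 weeks, described by the labels as biological replicates. The H2A.Z shRNA trained group received an adeno-associated virus (AAV) encoding a short hairpin RNA against the histone variant H2A.Z and underwent contextual fear conditioning, in which a chamber is paired with a foot shock. The H2A.Z shRNA naive group received the same virus without training. The control group received an AAV with a scrambled hairpin, so all 3 groups carry an AAV and a hairpin. The training state of the control mice, the delay between training and dissection, and the promoter and cell range of the virus were not stated in the sources used here.

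As background, cAMP made by adenylyl cyclases binds the regulatory subunits of protein kinase A (PKA) and frees its catalytic subunits, and phosphodiesterases end the signal by degrading cAMP. In parallel, RAS activates RAF kinases, which activate MEK kinases (Map2k1, Map2k2), which activate the ERK kinases, and ERK activates the RSK and MSK kinases. PKA, calcium/calmodulin kinase IV, RSK and MSK all phosphorylate CREB, which binds the cAMP response element (CRE) of target genes such as Fos and Bdnf. In the hippocampus this route is known for its part in lasting synaptic change and long-term memory. Its components act largely through phosphorylation, which RNA levels do not measure.

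All 33 genes were above a mean of 1 FPKM and were tested, with 12327 genes in all. The spacing of low values puts 1 FPKM at about 18.7 to 27 fragments per kilobase, depending on the library. The targeted mRNA, H2afz, stood at 28.5, 23.9 and 25.8 FPKM in the trained libraries, 25.1, 27.8 and 28.0 FPKM in the naive libraries, and 26.1, 28.7 and 26.4 FPKM in the controls, so the 3 groups overlapped. Directions below are therefore between groups as labelled. All 8 CA1 pyramidal markers checked, such as Wfs1, were above 0 in every library. All 10 markers of dentate granule neurons, the neighbouring field, were also above 0 in every library. In bulk tissue, fewer cells of a type and less RNA per cell cannot be told apart.

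The 33 genes spanned a wide range of levels, and FPKM allows these to be set side by side because it is scaled to length. The highest was Ppp3ca, the alpha catalytic subunit of the calcium-dependent phosphatase calcineurin, at 803 to 973 FPKM over the 9 libraries. It lay at the 99.9th percentile of the genes tested. Next came Prkar1a, a PKA regulatory subunit, at 185 to 208 FPKM, and Adcy1, a calcium-stimulated adenylyl cyclase, at 129 to 173 FPKM. The lowest were the MSK kinase Rps6ka5 at 2.94 to 3.67 FPKM and the RSK kinase Rps6ka1 at 2.72 to 4.72 FPKM. On the log2(FPKM + 1) scale, the SD between libraries of the same group had a median of 0.10 over the 33 genes and 0.09 over all genes tested.

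**Figure D1:**
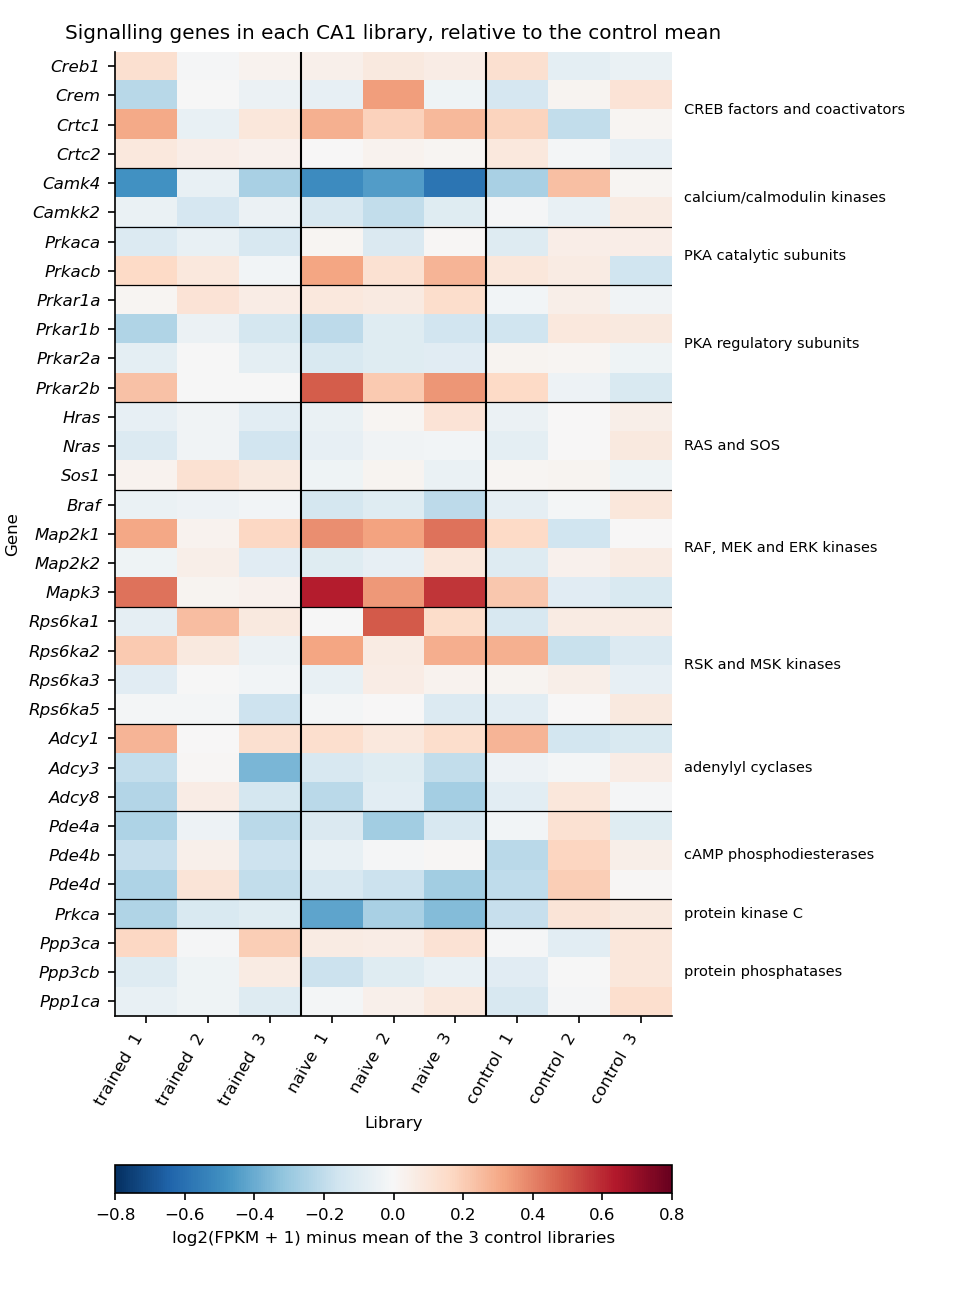
Each row is a signalling gene and each column a library, in the order trained, naive, control; colour gives log2(FPKM + 1) minus the mean of the 3 control libraries. Mapk3 and Map2k1 stand out as high and Camk4 and Prkca as low in the naive libraries, with trained replicate 1 and, less so, control replicate 1 shaded the same way for Mapk3 and Map2k1.

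Within families as represented among the signalling genes, 1 or 2 genes carried most of the FPKM. Of the summed FPKM of the 4 PKA regulatory subunits, Prkar1a held 51.0 to 56.8% and Prkar1b 35.6 to 42.4%. The type II subunits, which are known to tether PKA to anchoring proteins, held less: 3.73 to 4.33% for Prkar2a and 2.63 to 4.23% for Prkar2b. The catalytic subunits were near parity, with Prkaca at 47.1 to 56.0% of their sum and Prkacb making up the rest. Adcy1 held 89.7 to 93.3% of the summed FPKM of the 3 cyclases among the signalling genes. Adcy3 stood at 7.82 to 10.8 FPKM and Adcy8, the other calcium-stimulated cyclase, at 3.29 to 4.51 FPKM. Cyclases outside the signalling genes are not in this sum. Of those, Adcy2 averaged 41.8, Adcy9 21.2, Adcy5 14.1, Adcy6 5.36 and Adcy7 0.787 FPKM over all libraries. Of the summed FPKM of the 3 PDE4 phosphodiesterases, Pde4a held 50.0 to 57.5%, Pde4b 29.8 to 36.3% and Pde4d 12.0 to 15.04%. Phosphodiesterases outside the signalling genes are not in this sum. Of those, Pde2a averaged 78.1, Pde1a 41.2 and Pde1b 30.5 FPKM over all libraries, above Pde4a at 23.9 FPKM. Pde7a, Pde7b, Pde8b and Pde10a averaged less than Pde4a. Of the 2 MEK kinases, Map2k1 was 5.92 to 9.51 times as high as Map2k2, and the calcineurin subunit Ppp3ca was 6.92 to 8.88 times as high as Ppp3cb.

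Of 11 within-library ratios between relatives that were formed, 1 separated all 6 H2A.Z shRNA libraries from the controls. The ratio of Prkar1b to Prkar1a was 0.646, 0.692 and 0.672 in the trained libraries, 0.630, 0.689 and 0.629 in the naive libraries, and 0.703, 0.791 and 0.832 in the controls. The gap between trained replicate 2 and control replicate 1 was small. Between the naive libraries and the controls alone, 7 of the 11 ratios did not overlap. Besides Prkar1b to Prkar1a, those of Prkaca to Prkacb and Pde4d to Pde4b were lower in the naive libraries. The ratios of Prkar2b to Prkar2a, Map2k1 to Map2k2, Ppp3ca to Ppp3cb and Crtc1 to Crtc2 were higher. Prkaca to Prkacb stood at 0.892, 0.929 and 0.913 in the naive libraries and 0.9585, 1.09 and 1.27 in the controls. The count without overlap was 1 of 11 for trained against control and 0 of 11 for trained against naive libraries. No share over ratios of other genes was formed to set beside these counts. Of all single genes tested, 19.4% did not overlap between naive libraries and controls. The ratios use genes that are also counted singly below. These ratios are given as a description, without a test.

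The naive libraries were compared with the controls, a contrast of the 2 hairpins in which the H2A.Z shRNA mice were untrained. No signalling gene passed an adjusted p of 0.05 in limma, among 0 of 12327 genes called (0%). Of the 33 genes, 9 (27.3%) had an unadjusted p under 0.05, beside 15.5% of all genes tested. The groups did not overlap for 14 of the 33 (42.4%), 6 higher and 8 lower in the naive libraries, beside 19.4% of all genes, 11.2% higher and 8.23% lower. An estimate above 0 was found for 16 of the 33, beside 55.1% of all genes. The log2 fold changes ranged from -0.51 to 0.52, with a median of -0.02 beside 0.02 over all genes. Without control replicate 1, 15 genes of the whole table were called and without naive replicate 1, 13 were, with no signalling gene among them in either case. Without control replicate 1 the groups of 25 of the 33 genes did not overlap, a count that fewer libraries raise by construction.

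The MAP kinase cascade held the gene with the largest positive estimate. Mapk3, which encodes the kinase ERK1 on chromosome 7 (126759601 to 126765819, plus strand, GRCm38), stood at 59.3, 48.7 and 56.9 FPKM in the naive libraries and 44.3, 35.6 and 34.8 FPKM in the controls. Every naive library was above every control (limma log2 fold change 0.52, SE 0.14, adjusted p = 0.238). Map2k1, which encodes the MEK1 kinase that activates ERK, on chromosome 9 (64185770 to 64253631, minus strand), stood at 139, 134 and 145 FPKM in the naive libraries and 119, 95.6 and 107.4 FPKM in the controls. It too was higher in 3 of 3 naive libraries (limma log2 fold change 0.38, SE 0.09, adjusted p = 0.238). No other member of the cascade among the signalling genes was higher without overlap. Braf, the main RAF kinase of neurons, stood at 17.6, 18.1 and 16.7 FPKM in the naive libraries and 18.5, 19.3 and 20.8 FPKM in the controls, with all naive libraries lower (limma log2 fold change -0.15, SE 0.05, adjusted p = 0.265). Map2k2, Hras, Nras and the RAS exchange factor Sos1 overlapped between the groups, with estimates between -0.04 and 0.02. The RSK and MSK kinases among the signalling genes overlapped as well. Rps6ka4, an MSK kinase outside the signalling genes, was higher without overlap and is given below. Rps6ka2 averaged 9.45 ± 0.956 FPKM in the naive libraries and 8.02 ± 1.63 FPKM in the controls, and Rps6ka3 5.52 ± 0.278 and 5.48 ± 0.262 FPKM (SD, n = 3 each).

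Camk4, Camkk2 and Prkca had estimates below 0, while their relatives had estimates of both signs. Camk2a, a subunit of the abundant calcium/calmodulin kinase II, was higher without overlap, at 851, 862 and 857 FPKM in the naive libraries and 823, 704 and 849 FPKM in the controls. Camkk1, Camk2b, Prkce and Prkcd also had estimates above 0, between 0.09 and 0.26, and Prkcb and Camk1g estimates below 0, of -0.27 and -0.24. Camk4, the nuclear calcium/calmodulin kinase that phosphorylates CREB, lies on chromosome 18 (32934931 to 33191228, plus strand). It stood at 6.94, 7.24 and 6.49 FPKM in the naive libraries and 8.41, 12.3 and 10.4 FPKM in the controls, the most negative estimate of the 33 (limma log2 fold change -0.51, SE 0.14, adjusted p = 0.238). Camkk2, a kinase that activates Camk4, stood at 30.7, 29.2 and 31.4 FPKM in the naive libraries. In the controls it stood at 33.5, 32.4 and 35.3 FPKM (limma log2 fold change -0.14, SE 0.05, adjusted p = 0.265). For both genes every naive library was below every control. Prkca, the alpha isoform of protein kinase C, on chromosome 11 (107933387 to 108343928, minus strand), had the smallest unadjusted p of the 33. It stood at 31.2, 35.1 and 32.9 FPKM in the naive libraries and 37.0, 45.4 and 44.5 FPKM in the controls, again without overlap (limma log2 fold change -0.34, SE 0.08, adjusted p = 0.237).

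The PKA subunits had estimates of both signs. Prkar2b, the regulatory subunit of brain PKA type II, on chromosome 12 (31958476 to 32061296, minus strand), stood at 14.96, 12.2 and 13.6 FPKM in the naive libraries and 11.8, 10.1 and 9.52 FPKM in the controls. All naive libraries were higher (limma log2 fold change 0.35, SE 0.10, adjusted p = 0.245). Prkacb stood at 81.9, 71.7 and 79.6 FPKM in the naive libraries and 70.0, 68.9 and 58.7 FPKM in the controls, also without overlap (limma log2 fold change 0.24, SE 0.08, adjusted p = 0.265). Prkar2a was lower without overlap, at 13.5 ± 0.166 FPKM in the naive libraries and 14.6 ± 0.334 FPKM in the controls. Prkar1a was higher without overlap, at 202 ± 5.56 and 188 ± 5.68 FPKM, while Prkaca overlapped. The ratio of Prkar2b to Prkar2a was 1.12, 0.900 and 0.994 in the naive libraries and 0.793, 0.684 and 0.668 in the controls.

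On the cAMP side, Adcy3, Adcy8 and Pde4a stood lower in all 3 naive libraries. Adcy8 averaged 3.54 ± 0.301 FPKM in the naive libraries and 4.18 ± 0.314 FPKM in the controls, and Pde4a 22.8 ± 1.43 and 25.9 ± 2.13 FPKM (SD, n = 3 each). Adcy3 averaged 9.31 ± 0.362 and 10.4 ± 0.402 FPKM. It shares 22.1% of its annotated exon bases with Cenpo on the opposite strand, so its value is uncertain if strand was not used in counting. Adcy1, Pde4b and Pde4d overlapped between the groups. Of the CREB group, the coactivator gene Crtc1 was higher without overlap, at 41.5, 38.7 and 40.9 FPKM in the naive libraries and 38.6, 29.6 and 34.4 FPKM in the controls. Creb1 itself averaged 8.93 ± 0.124 and 8.56 ± 0.746 FPKM, a difference within the spread of the controls. Crem, a CREB relative whose short form ICER represses CRE-driven genes, averaged 8.53 ± 1.53 and 7.98 ± 0.761 FPKM, and the table does not separate its forms. The phosphatase genes Ppp3ca, Ppp3cb and Ppp1ca all overlapped between the groups.

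**Figure D2:**
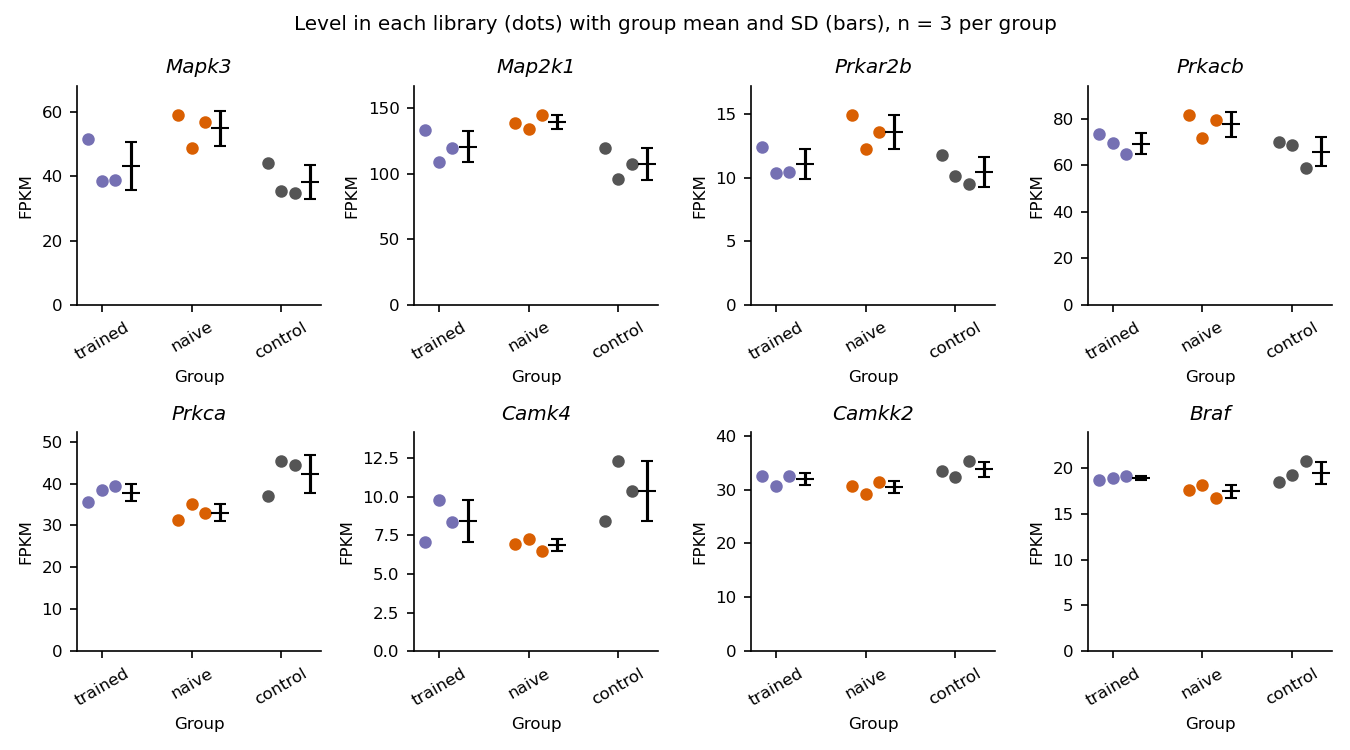
FPKM in each library for 8 signalling genes, with trained, naive and control groups from left to right; dots are libraries and bars are the mean and SD of 3. The naive libraries lie above the controls for Mapk3, Map2k1, Prkar2b and Prkacb and below them for Prkca, Camk4, Camkk2 and Braf.

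Markers of dentate granule neurons differed between the same libraries. The mean log2(FPKM + 1) of the 10 markers was 3.99, 3.31 and 3.55 in the trained libraries, 4.06, 3.79 and 4.03 in the naive libraries, and 3.82, 3.08 and 2.92 in the controls. Their summed level was 120.2 to 208 FPKM in the trained group, 169 to 222 FPKM in the naive group and 86.4 to 178 FPKM in the controls. Prox1, which defines granule neurons, stood at 28.9, 19.7 and 24.7 FPKM in the naive libraries and 18.9, 11.8 and 9.66 FPKM in the controls. Control replicate 1 was thus closest to the naive group in these markers. It was also the control closest to the naive group in 10 of the 14 signalling genes without overlap (71.4%), beside 50.0% of all genes without overlap. With the marker mean as a covariate, an alternative added after seeing the data, the naive against control log2 fold change was 0.17 in place of 0.52 for Mapk3 and 0.17 in place of 0.38 for Map2k1. It was 0.10 in place of 0.35 for Prkar2b, -0.19 in place of -0.51 for Camk4 and -0.15 in place of -0.34 for Prkca. For Camkk2 it was -0.16 in place of -0.14. Marker level and group overlap in this design, so their shares cannot be told apart. Microglial markers also stood higher, with a summed level of 160 to 308 FPKM over 8 genes in the naive libraries and 123 to 153 FPKM in the controls. Choroid plexus markers summed to 46.3 to 77.1 FPKM in the naive libraries and 84.1 to 946 FPKM in the controls, with the highest value in control replicate 3. The 8 CA1 markers summed to 268 to 303 FPKM in the naive libraries and 293 to 407 FPKM in the controls, with 7 of 8 estimates below 0, a median log2 fold change of -0.29, and 3 markers lower and 1 higher without overlap. The 8 oligodendrocyte markers summed to 969 to 1550.2 FPKM in the naive libraries and 1253 to 1952 FPKM in the controls, with all 8 estimates below 0 and a median of -0.25. The part of the microglial, choroid plexus, CA1 and oligodendrocyte markers in the signalling genes was not tested.

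**Figure D3:**
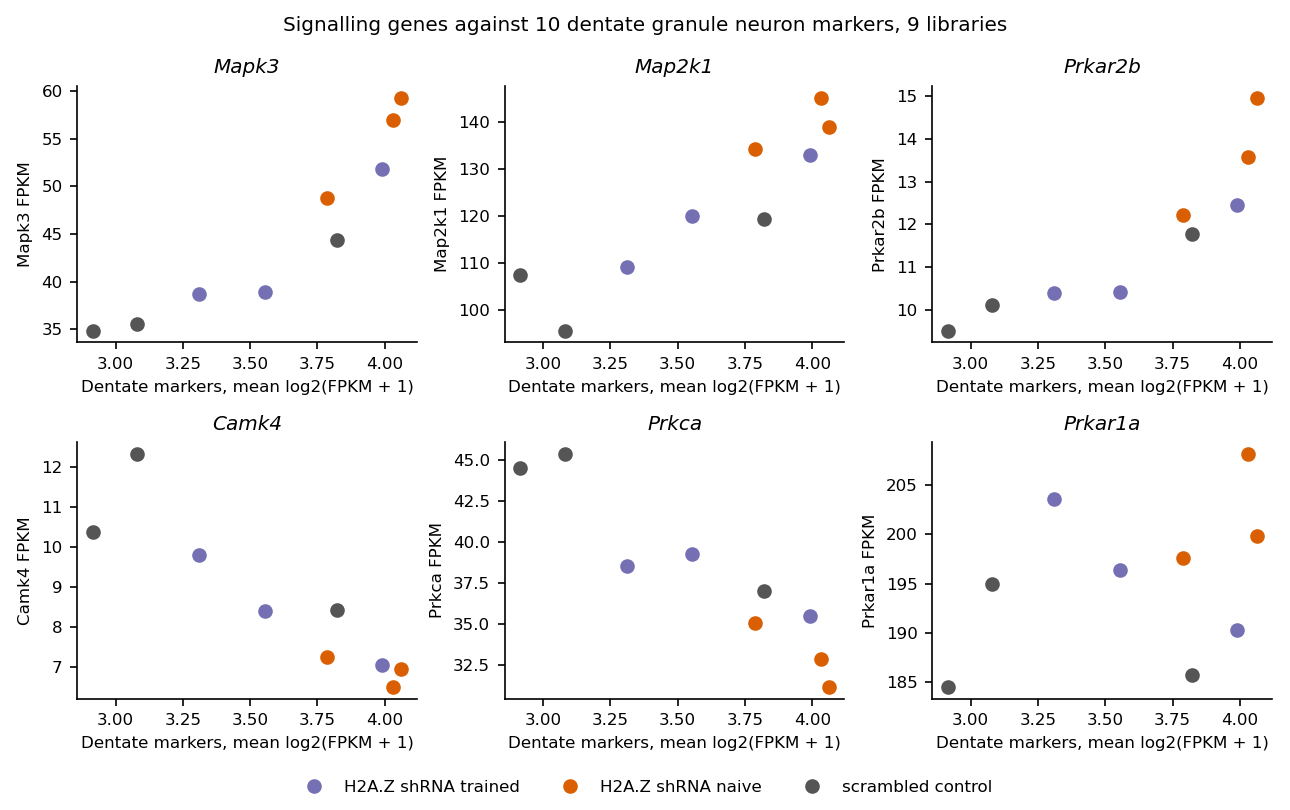
Each panel plots the FPKM of a signalling gene against the mean log2(FPKM + 1) of 10 dentate granule neuron markers in the 9 libraries, coloured by group. Mapk3, Map2k1 and Prkar2b are highest and Camk4 and Prkca lowest in libraries with high marker levels, within the controls as well as between groups, while Prkar1a shows no such order.

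The trained libraries were compared with the controls, which holds the hairpin and any difference in training. No signalling gene passed the adjusted threshold in limma, with 1 gene of 12327 called (0.00811%), and none of the 33 had an unadjusted p under 0.05, beside 7.71% of all genes. The groups did not overlap for 1 of the 33 (3.03%), beside 12.5% of all genes, 6.4% higher and 6.08% lower. That gene was Sos1, which encodes an exchange factor that loads RAS with GTP, at 8.20, 8.84 and 8.55 FPKM in the trained libraries and 8.13, 8.18 and 7.82 FPKM in the controls. Its lowest trained library was just above its highest control. The median log2 fold change of the 33 genes was -0.04, beside -0.01 over all genes, with 13 estimates above 0, beside 47.2% of all genes, and a range from -0.27 to 0.17. The count without overlap was 19 without control replicate 1, 3 without control replicate 2, 5 without control replicate 3, 3 without trained replicate 1 and 11 without trained replicate 2. The median was -0.077 without control replicate 1 and -0.0033 without control replicate 3.

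The smallest unadjusted p belonged to Pde4a, a cAMP phosphodiesterase, at 21.6, 25.0 and 22.1 FPKM in the trained libraries and 25.4, 28.2 and 24.0 FPKM in the controls. The highest trained library exceeded the lowest control (limma log2 fold change -0.17, SE 0.08, adjusted p = 0.649). Adcy3 stood at 8.97, 10.4 and 7.82 FPKM in the trained libraries and 10.04, 10.3 and 10.8 FPKM in the controls (limma log2 fold change -0.18, SE 0.09, adjusted p = 0.652). Camk4 was at 7.05, 9.78 and 8.39 FPKM in the trained libraries, overlapping the controls (limma log2 fold change -0.27, SE 0.14, adjusted p = 0.671). Prkca, Prkar1b and Nras had estimates of -0.15, -0.14 and -0.10, with limma adjusted p of 0.680 to 0.682. Prkar1b averaged 132 ± 8.97 FPKM in the trained libraries and 146 ± 13.5 FPKM in the controls, and Nras, a RAS GTPase, 10.8 ± 0.515 and 11.7 ± 0.689 FPKM (SD, n = 3 each). With the dentate marker mean as a covariate the log2 fold changes were -0.11 for Camk4, -0.05 for Prkca, -0.05 for Prkar1b and -0.05 for Nras. They were -0.14 for Adcy3 and -0.15 for Pde4a. Without trained replicate 3 the log2 fold change of Adcy3 was -0.09. For Camk4 it was -0.15 without control replicate 2 and -0.16 without trained replicate 1. Mapk3 and Map2k1 overlapped here, with 95% confidence intervals of the log2 fold change from -0.14 to 0.47 for Mapk3 and from -0.04 to 0.38 for Map2k1. For Creb1 the interval ran from -0.09 to 0.19.

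**Figure D4:**
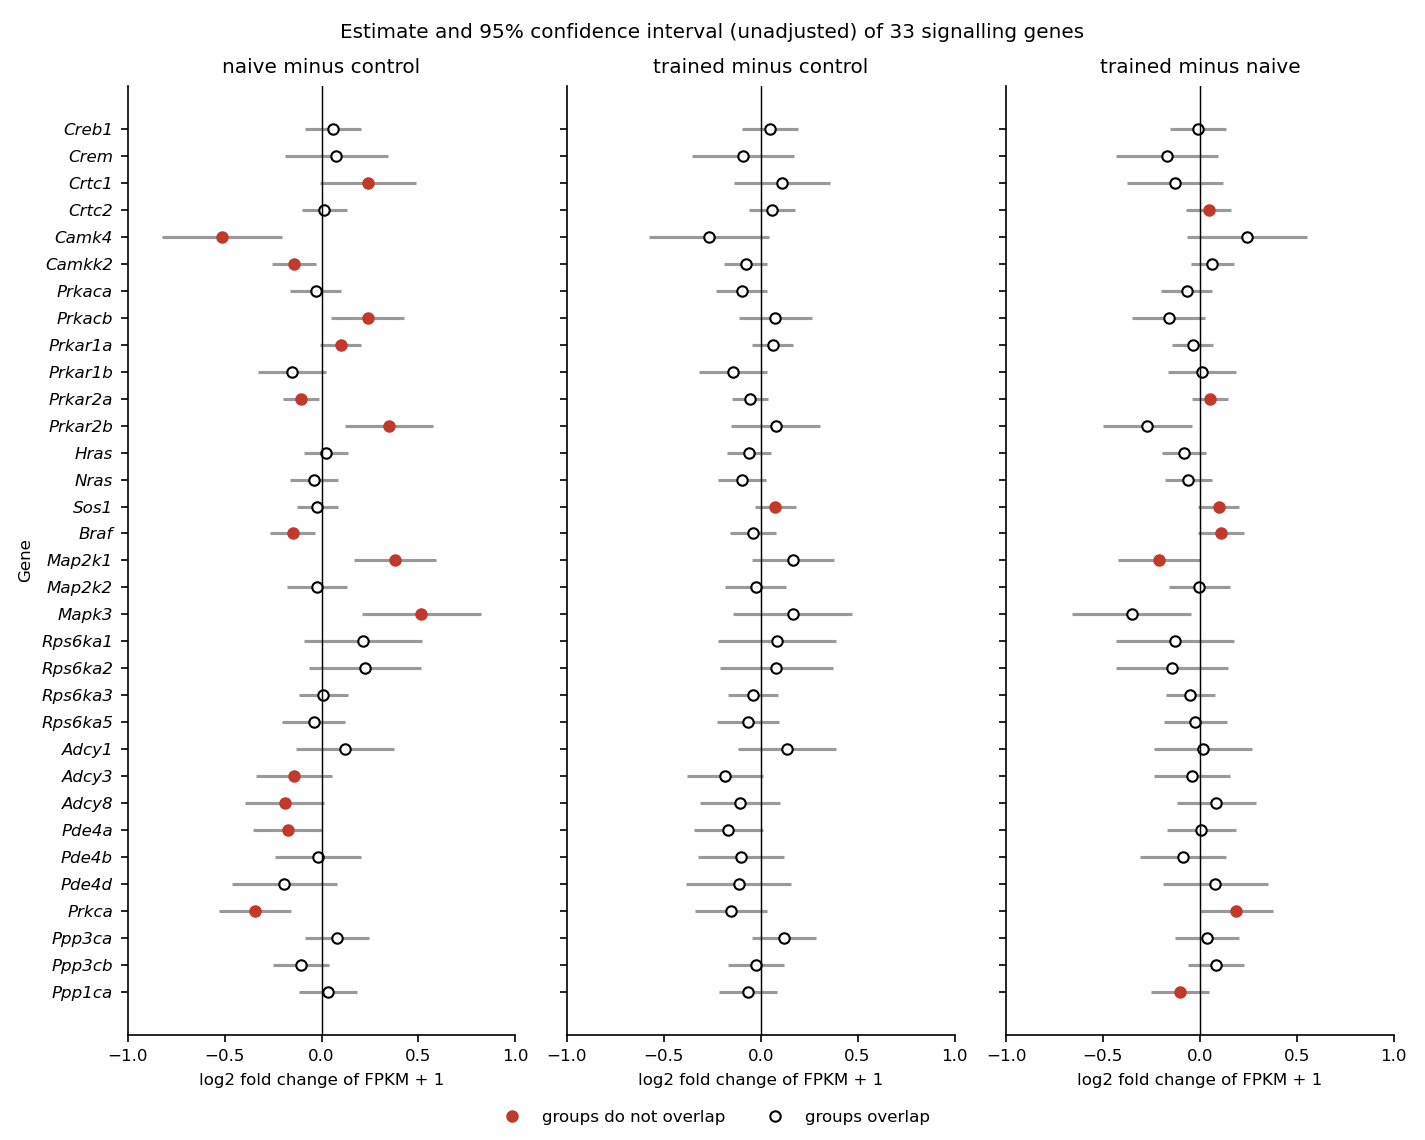
Log2 fold change of FPKM + 1 with its unadjusted 95% confidence interval for the 33 signalling genes in 3 comparisons; filled points mark genes whose groups do not overlap. The count of filled points is 14 for naive minus control, 1 for trained minus control and 7 for trained minus naive.

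The trained and naive libraries carry the same hairpin and differ in training. Again no signalling gene passed in limma (1 gene of 12327 called, 0.00811%), and 3 of the 33 (9.09%) had an unadjusted p under 0.05, beside 8.27% of all genes. The groups did not overlap for 7 of the 33 (21.2%), beside 15% of all genes. They were Sos1, Braf, Prkca, Prkar2a and Crtc2, higher in the trained libraries, and Map2k1 and Ppp1ca, lower, beside 5.79% higher and 9.16% lower over all genes. An estimate above 0 was found for 14 of the 33, beside 41.3% of all genes. The count without overlap, 7 over all libraries, was 13 without naive replicate 2, 14 without trained replicate 1 and 13 without trained replicate 2. Prkca stood at 35.5, 38.6 and 39.3 FPKM in the trained libraries and 31.2, 35.1 and 32.9 FPKM in the naive libraries, a narrow separation (limma log2 fold change 0.19, SE 0.08, adjusted p = 0.601). Map2k1 stood at 133, 109.1 and 120.0 FPKM in the trained libraries and 139, 134 and 145 FPKM in the naive libraries (limma log2 fold change -0.21, SE 0.09, adjusted p = 0.603). Braf stood at 18.7, 18.9 and 19.2 FPKM in the trained libraries, above all 3 naive values (limma log2 fold change 0.11, SE 0.05, adjusted p = 0.612). Sos1 had a log2 fold change of 0.10 (SE 0.05, limma adjusted p = 0.615).

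The remaining genes with small p in this comparison overlapped because of 1 library. Mapk3 stood at 51.8, 38.7 and 38.9 FPKM in the trained libraries and 59.3, 48.7 and 56.9 FPKM in the naive libraries (limma log2 fold change -0.35, SE 0.14, adjusted p = 0.591). Prkar2b stood at 12.4, 10.4 and 10.4 FPKM in the trained libraries and 14.96, 12.2 and 13.6 FPKM in the naive libraries (limma log2 fold change -0.27, SE 0.10, adjusted p = 0.591). In both genes trained replicate 1, the trained library with the highest dentate marker mean, reached into the naive range. With the marker mean as a covariate the log2 fold changes were -0.18 for Mapk3, -0.15 for Prkar2b, 0.09 for Prkca and -0.11 for Map2k1. They were 0.07 in place of 0.11 for Braf and 0.08 in place of 0.10 for Sos1.

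Both H2A.Z shRNA groups together were compared with the controls. This comparison shares its libraries with those above. No signalling gene passed in limma (0 of 12327 genes called, 0%), 7 of the 33 (21.2%) had an unadjusted p under 0.05, beside 12.4% of all genes, and none had groups without overlap, beside 4.93% of all genes, 2.94% higher and 2% lower. An estimate above 0 was found for 13 of the 33, beside 52.1% of all genes. The estimates furthest from 0 were those of Camk4 at -0.39 (SE 0.12, limma adjusted p = 0.337) and Mapk3 at 0.34 (SE 0.12, limma adjusted p = 0.369). Map2k1 was at 0.27 (SE 0.08, limma adjusted p = 0.328) and Prkca at -0.25 (SE 0.07, limma adjusted p = 0.326). Pde4a was at -0.17 and Camkk2 at -0.11, with limma adjusted p of 0.386 and 0.383. With the marker covariate these were 0.08 for Mapk3, 0.12 for Map2k1, -0.15 for Camk4 and -0.10 for Prkca. For Pde4a and Camkk2 they were -0.14 and -0.13. The count without overlap was 15, 2 and 3 without control replicates 1, 2 and 3, and 1 and 6 without trained replicates 1 and 2. The median log2 fold change of the 33 genes was -0.02, and -0.074 without control replicate 1.

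The other genes of the pathway were taken from 5 lists with 92 genes tested, among them 22 CREB target genes. No gene of these lists passed the adjusted threshold in limma in any of the 4 comparisons. In the naive against control comparison 20 of the 92 (21.7%) had an unadjusted p under 0.05, beside 15.5% of all genes, and 16 (17.4%) had groups without overlap, beside 19.4% of all genes. Those with the smallest p were Rps6ka4, a second MSK kinase, at 9.503, 7.99 and 9.11 FPKM in the naive libraries and 6.94, 6.66 and 7.54 FPKM in the controls, and Btg2, a target gene that restrains proliferation. Atf1, the closest relative of CREB, stood at 4.45, 5.11 and 4.16 FPKM in the naive libraries and 3.81, 3.18 and 3.56 FPKM in the controls. These 3 genes were higher in all naive libraries, with limma adjusted p of 0.238 to 0.242. Atf1 was higher in the trained libraries too, at 4.64, 4.35 and 4.15 FPKM (both groups against control, limma log2 fold change 0.28, SE 0.07, adjusted p = 0.294).

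Most CREB target genes had estimates above 0 in the trained libraries. Against the controls, the 22 targets had a median log2 fold change of 0.39, with 18 estimates above 0 and 12 genes higher without overlap (54.5%), beside 6.4% of all genes that were higher without overlap. The 4 targets with estimates below 0 were Pcsk1, Ppargc1a, Sst and Vgf, between -0.17 and -0.05. The 33 signalling genes had a median of -0.04 in the same comparison. Against the naive libraries, the target median was 0.28, with 20 estimates above 0 and 10 genes higher without overlap (45.5%), beside 5.79% of all genes, and the signalling median was -0.02. In the naive against control comparison, which has no trained library, the target median was 0.06. The immediate early genes in this list were known from earlier results to be higher in the trained libraries, so their direction is not independent evidence.

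Single targets differed in which groups stood apart. Fos, a subunit of AP-1, stood at 7.55, 12.2 and 11.7 FPKM in the trained libraries, 5.24, 6.67 and 6.72 FPKM in the naive libraries, and 6.16, 4.59 and 3.55 FPKM in the controls. Each trained library was above every other library (trained against control, limma log2 fold change 0.99, SE 0.20, adjusted p = 0.504). Bdnf, a neurotrophin, stood at 17.1, 16.5 and 18.5 FPKM in the trained libraries, 14.3, 16.3 and 16.8 FPKM in the naive libraries, and 13.9, 13.7 and 14.1 FPKM in the controls. Its trained and naive values overlapped, and both groups lay above the controls (both groups against control, limma log2 fold change 0.24, SE 0.06, adjusted p = 0.287). Per1, a clock gene, stood at 18.7, 19.6 and 19.5 FPKM in the trained libraries, 13.8, 13.3 and 14.6 FPKM in the naive libraries, and 16.5, 11.7 and 13.4 FPKM in the controls, with all trained libraries highest (trained against naive, limma log2 fold change 0.45, SE 0.10, adjusted p = 0.556). Egr1 and Nr4a3, both transcription factor genes, had log2 fold changes of 0.72 and 0.37 in trained against naive libraries, without overlap (limma adjusted p = 0.467 for both). Btg2 stood at 6.56, 5.93 and 6.81 FPKM in the trained libraries, 6.37, 5.68 and 6.94 FPKM in the naive libraries, and 5.51, 3.73 and 3.91 FPKM in the controls, above the controls in both H2A.Z shRNA groups, with trained and naive values overlapping (limma log2 fold change 0.47, SE 0.11, adjusted p = 0.287). Without control replicate 1, Arc, Btg2 and Per1 passed in trained against control, with limma adjusted p of 0.0161, 0.0491 and 0.0304. In both groups against control, Arc and Btg2 then passed, with limma adjusted p of 0.0308 and 0.0315. In that control Arc stood at 88.4 FPKM, against 32.9 and 36.8 FPKM in the other controls and 95.7 to 118 FPKM in the trained libraries.

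**Figure D5:**
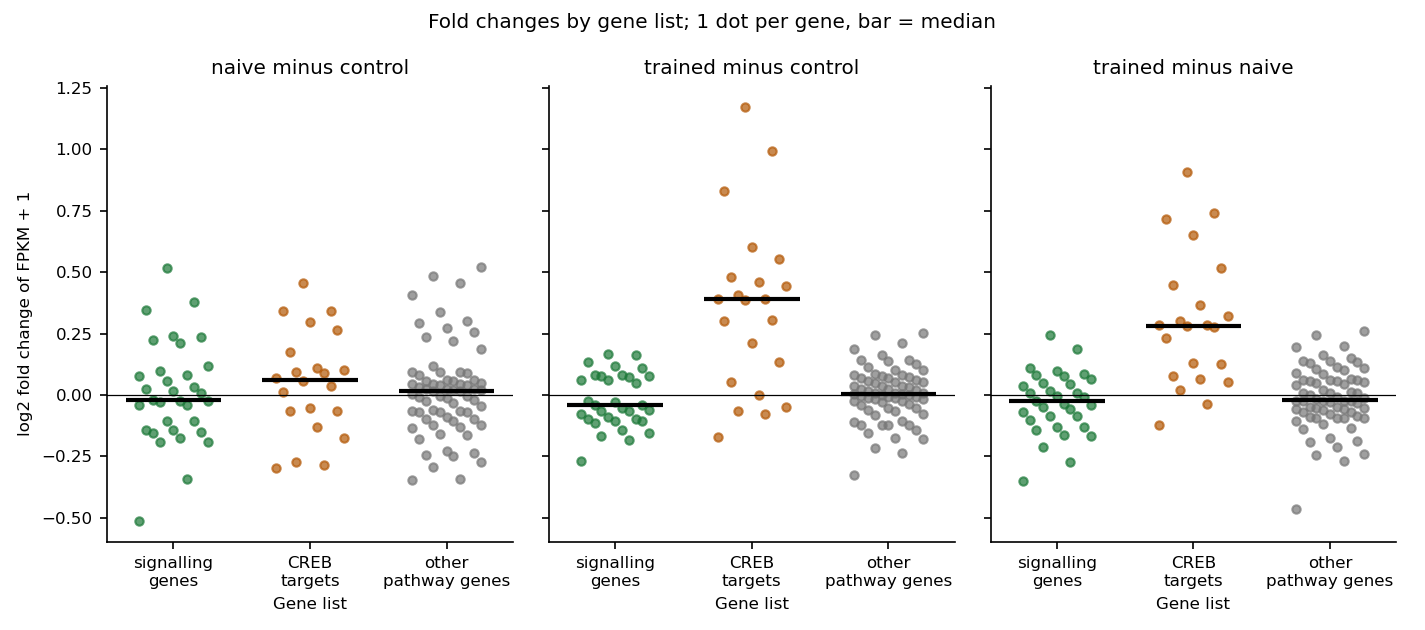
Log2 fold change of FPKM + 1 for each of the 33 signalling genes, the 22 CREB target genes and the other pathway genes in 3 comparisons; each dot is a gene and bars are medians. The target medians are 0.39 and 0.28 in the panels with trained libraries and 0.06 for naive minus control, while the signalling medians lie between -0.04 and -0.02 in all 3 panels.

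The letters CREB is known to bind were looked for in RefSeq promoter windows (GRCm38.p6, 250 bases before to 50 after a start) as the full CRE TGACGTCA, which reads the same on both strands, and as its core, TGACG or CGTCA, which the full CRE contains. Of the 33 signalling genes, 25 matched a window, with 46 windows in all; Crem, Crtc2, Camk4, Mapk3, Rps6ka3, Adcy8, Ppp3ca and Ppp1ca did not. A full CRE was in the windows of 2 of these 25 genes (8%), beside 5 of 17 matched CREB target genes (29.4%) and 2.03% of all 27025 genes with a window. The core was in 13 of the 25 (52.0%), in 16 of the 17 targets (94.1%) and in 23.0% of all genes. These shares count a gene with a match in any window, so a gene with more windows has more places for one. Per window, the core was in 32.6% for signalling genes, 67.9% for targets and 20.8% of all windows. The full CRE was in 6.52%, 17.9% and 1.79% of these windows. The signalling genes with a full CRE were Braf and Prkar1a. They are printed with Btg2 and Dusp1, the targets with a full CRE that were higher without overlap in trained against control. The other targets with a full CRE, Pcsk1, Scg2 and Sst, overlapped between these groups. Pcsk1 and Sst had a lower mean in the trained libraries and Scg2 a higher one. Dusp1 encodes a phosphatase of MAP kinases. It stood at 6.84, 8.67 and 7.26 FPKM in the trained libraries and 6.07, 4.91 and 5.68 FPKM in the controls. Capitals mark the full CRE, 5′ to 3′ on the strand of the gene.
Braf, chr6:39725535-39725582, minus strand: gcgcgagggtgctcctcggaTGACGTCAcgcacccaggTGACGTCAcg
Prkar1a, chr11:109650880-109650907, plus strand: ctggccagagcgaggcgcatTGACGTCA
Btg2, chr1:134079294-134079341, minus strand: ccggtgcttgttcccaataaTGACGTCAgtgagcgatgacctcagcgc
Dusp1, chr17:26508588-26508635, minus strand: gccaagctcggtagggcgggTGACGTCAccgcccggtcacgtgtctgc
The first CRE begins 99 bases before the start of Braf, 49 before a start of Prkar1a, 166 before that of Btg2 and 143 before that of Dusp1. The CRE printed for Prkar1a also lies within the 50 bases after another RefSeq start of that gene. Of the 2 signalling genes, Braf stood lower and Prkar1a higher in the naive libraries than in the controls. Such a match is a description of letters and not of binding.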

How the data were processed

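Polyadenylated RNA of 9 libraries was measured, 3 per group. Per the submitters' processing notes, FastQC, TopHat 1.4.0, Cufflinks and Cuffdiff were used with mm10; the sources used here do not give the annotation, the use of strand or the step that wrote the table. The authors deposited FPKM per gene and library, with no counts, so depth was estimated from steps between low values and no counting interval was computed. Of 24489 rows, 27 with names turned into dates and those at 0 throughout were left out. Values were taken as log2(FPKM + 1), a pseudocount of 1 that understates changes of low genes, for the 12327 genes whose mean reached 1 FPKM. They were fitted with 3 groups in limma 3.58.1 (R 4.3.3), with a trended prior variance, two-sided tests, 6 residual degrees of freedom and Benjamini-Hochberg adjustment over all genes within a comparison; the method was tested on simulated data. Python 3.11.15 with pandas 2.3.3 was used for promoters, depth and figures. Fold changes are those of FPKM + 1. Non-overlap means that the ranges of the groups are apart; with 3 against 3 libraries an exact permutation test cannot go below 0.1. The signalling genes and lists were chosen with earlier results of these data known. Most of the 33 are given by level. Crtc2, Prkaca, Hras, Map2k2, Pde4b, Pde4d, Ppp3cb and Ppp1ca are given only by share, ratio, estimate or overlap. The 6 with the smallest unadjusted p in a comparison, and the 3 other pathway genes with the smallest, are named with their results. For some, such as Prkar1b and Nras in trained against control and Egr1 and Nr4a3 in trained against naive, values per library are left out. Genes beyond these were chosen after their values were seen. Positions are from GENCODE M21 on GRCm38. Alternatives were a filter of 5 FPKM or none, a pseudocount of 0.1, quantile normalization, median-of-ratios scaling, only the groups compared, a robust prior variance, each library left out, and the dentate marker mean as a covariate, chosen after seeing the data.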

Additional observations from a re-analysis of the deposited data

How the results depend on the processing

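In every alternative, 0 signalling genes passed the threshold, with the smallest limma adjusted p among those given in full at 0.0645. The 24 log2 fold changes given in full kept their sign in all 378 planned recomputations and with the marker covariate. The cause of the following differences was not tested, except that leaving out libraries makes non-overlap easier by construction. The number of signalling genes without overlap in trained against control was 2 with median-of-ratios scaling and 3 with quantile normalization. Leaving out a library gave 14 to 25 for naive against control, 1 to 19 for trained against control, 7 to 14 for trained against naive and 0 to 15 for both groups against control. Over all genes, calls in trained against control numbered 0 without a filter, 3 with only the groups compared and 0 with the marker covariate; in trained against naive, 2 with only the groups compared and 2 with the covariate; in naive against control, 2 with a filter of 5 FPKM. Leaving out a library, they ranged over 0 to 15 in naive against control, 0 to 25 in trained against control, 0 to 25 in trained against naive and 0 to 37 in both groups against control, highest without control replicate 1, or for trained against naive without naive replicate 1. Calls among other pathway genes then ranged over 0 to 3 in trained against control and 0 to 2 in both groups against control, the upper values without control replicate 1. The median log2 fold change of the signalling genes ranged from -0.029 to 0.013, -0.077 to -0.0033 and -0.074 to 0.0042 in naive, trained and both groups against control when a library was left out, and was 0.029 in naive against control with the covariate. No paired analysis was possible because the labels give no replicate numbers shared by the groups. Groups of 3 libraries and an unknown count depth limit these comparisons to differences larger than the intervals shown.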
